A study of Arabidopsis thaliana with 16 samples.

Results

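The comparison described here sets leaves of Arabidopsis thaliana in which heating had lowered photosynthesis to 20% below its optimum against leaves kept at growth temperature. Its members are the 4 arrays of the 20% inhibition state and the 4 arrays of the baseline state, 8 of the 16 arrays of the series, chosen by the state named in each array's label. The other 8 arrays, 4 at the photosynthetic optimum and 4 at 30% inhibition, entered the fit for the estimate of the spread and serve as neighbouring states. All 16 arrays came from the first fully expanded leaf of the Columbia line, with no mutation or transgene named, and each array holds total RNA of a separate leaf sample. The labels name 4 randomly collected plants and do not say whether the states share plants. Every plant was raised at 22 °C and 60% relative humidity with a 10 h photoperiod under 350 µmol photons per square metre and second. The heated leaves were warmed from 22 °C towards 42 °C by 2 °C every 10 min until gas exchange reached the named state, then held for 20 to 30 min before harvest, within a response curve of 3 to 4 h. The labels give the state and not the leaf temperature of an array, so leaf temperature, duration of heating and time of day cannot be told apart.

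Carbon fixation is known to decline above its temperature optimum, where the enzyme that keeps Rubisco active becomes unstable and photorespiration increases. Leaves answer heat through heat shock factors that switch on chaperones, and through a second, membrane-anchored pathway that senses misfolded protein in the endoplasmic reticulum. Growth hormones, calcium signals, sugar export and cell wall loosening are among the gene groups followed here, with the chaperones given by counts and their leading genes.

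Values are log2 signals of Affymetrix ATH1 probe sets after robust multi-array averaging. A gene is said to rise or fall where the limma fit across all 22746 non-control probe sets gave a Benjamini-Hochberg adjusted p under 0.05, and ± is the standard error of the difference between 4 and 4 arrays. At that threshold 43.9% of all probe sets differed between 20% inhibition and baseline, 4303 higher and 5673 lower, a majority of falls that turned into 51.5% rises when each array was centred on its median. Most lists below were drawn from the 1557 genes with a symbol in the annotation. Of these genes 50.8% changed, 21.8% rose and 29.0% fell, and their median difference was -0.01. A list with about that share is like the other genes with a symbol. Lists and members were chosen with earlier results of these data known, so a share above it describes a list and tests nothing. The groups of 4 arrays did not overlap for 40.2% of probe sets. The number of arrays limits the precision, and in whole leaves fewer cells of a type and less RNA per cell cannot be told apart.

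Arrays correlated at 0.988 to 0.998 within the 2 states and at 0.942 to 0.949 between them. Replicate 3 at 20% inhibition stood apart from its group in 162 probe sets. In 137 of them it differed from the mean of the other 3 arrays in the direction of the baseline mean. That count includes values past the baseline, as in AT5G61590 below. The control probe set for 25S ribosomal RNA read 12.99, 10.41, 5.25 and 12.88 in replicates 1 to 4 at 20% inhibition and between 5.55 and 6.41 at baseline, so that replicate 3 alone read like a baseline array. The difference of 4.49 gave an exact 2-sided permutation p of 0.14, where 0.0286 is the smallest p that 70 assignments allow. The same probe set read 5.52 to 6.31 in the optimum arrays and 8.67 to 11.35 in the arrays at 30% inhibition. It was thus high in both inhibition states except in replicate 3, and as a covariate it cannot be fully told apart from the state. The part of the 25S signal in the results was not tested. Some results that change without replicate 3 carry that value below, but not every such list count or gene value is given. With the 25S signal as a covariate the calls of 21 of 215 named genes ended, with values given below or under the dependence on the processing. Of the fixed leaf markers, 4 of 11 mesophyll genes were measured and read 10.77 to 14.64 at baseline and 9.82 to 14.47 at 20% inhibition, and 2 of 5 guard cell genes read 6.71 to 9.63 and 6.33 to 8.15. The 1 measured pollen marker of 3 stayed between 4.86 and 5.25, and none of the epidermis, vascular and root markers was measured as a named gene.

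**Figure D1:**
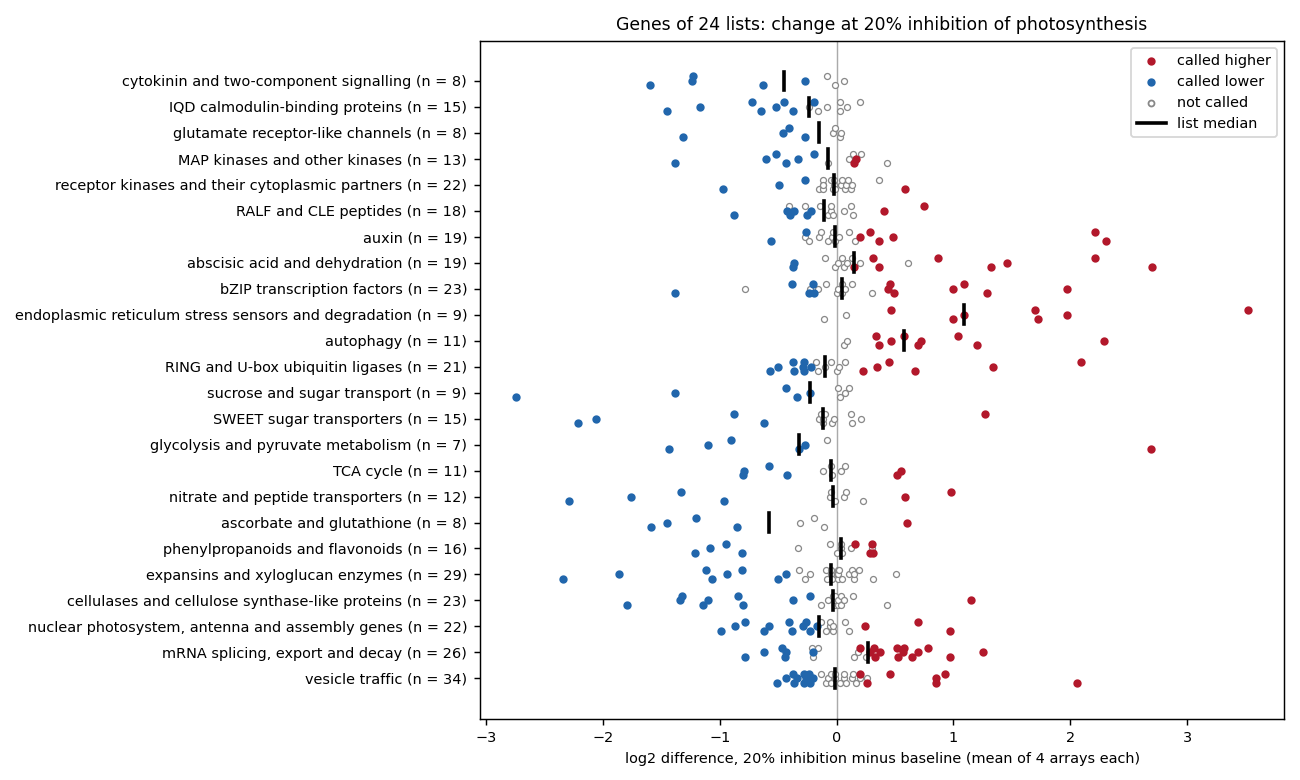
Each point is a gene of 1 of 24 lists, placed on the horizontal axis by its log2 difference, 20% inhibition minus baseline (means of 4 arrays each). Red points rose, blue points fell, open points did not pass the test, and black ticks are list medians. The lists for endoplasmic reticulum stress (median 1.09) and autophagy (0.58) lie to the right, and those for cytokinin (-0.45) and for ascorbate and glutathione (-0.58) lie to the left.

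Both listed type-A response regulators of cytokinin signalling were lower in the heated leaves. Of 8 measured genes of two-component and cytokinin signalling, 5 fell and none rose, with a median of -0.45, where 29.0% of genes with a symbol fell. RR16 (AT2G40670), a type-A response regulator of the kind that cytokinin switches on and that dampens its own pathway, read 6.57, 6.72, 6.23 and 6.24 at baseline and 4.85, 4.76, 4.73 and 4.99 at 20% inhibition. It fell by 1.60 ± 0.14 (adjusted p 4.6e-08), and the groups did not overlap. ARR15 (AT1G74890), of the same class, read 6.43 to 6.88 at baseline and 5.37 to 5.54 at 20% inhibition and fell by 1.24 ± 0.11 (adjusted p 8.8e-08). In both genes the heated arrays spanned a narrower range than the baseline arrays, a difference in spread that was not tested. UGT76C2 (AT5G05860), which inactivates cytokinins by attaching glucose, read 7.53 to 7.65 and 6.10 to 6.63, a fall of 1.23 ± 0.12 (adjusted p 3.6e-07), and its relative UGT76C1 fell by 0.63. RR19, a response regulator, fell by 0.27, but was not called without baseline replicate 3 or 4 or 20% replicate 2 or 3 (-0.26 to -0.18). RR18, RR22 and RR23 differed by -0.08, 0.06 and -0.01 and did not pass the test.

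Genes for calcium signalling that changed mostly fell. Of 15 measured IQD genes, whose proteins bind calmodulin and sit on microtubules, 8 fell and none rose (median -0.24). IQD24 (AT5G07240) read 9.35, 9.32, 9.32 and 9.21 at baseline and 7.80, 7.77, 8.14 and 7.67 at 20% inhibition, a fall of 1.45 ± 0.10 (adjusted p 4.0e-09) without overlap. iqd21 (AT3G49260) fell by 1.17 ± 0.08 from 9.00 to 9.20 at baseline to 7.83 to 8.09. Of the remaining falling members, IQD23, IQD22, IQD28, IQD31 and IQD30 fell by between 0.72 and 0.37, and iqd32 fell by 0.19 and was not called without baseline replicate 3 or 20% replicate 1, 2 or 4 (-0.19 to -0.15). Of 8 measured glutamate receptor-like channels, which carry calcium signals across membranes, 4 fell and none rose (median -0.15). GLR2.7 (AT2G29120) read 7.00, 6.90, 6.91 and 6.68 at baseline and 5.61, 5.70, 5.28 and 5.67 at 20% inhibition and fell by 1.31 ± 0.12 (adjusted p 1.0e-07). GLR3.3 (AT1G42540), needed for wound signals that spread between leaves, fell by 0.46 ± 0.07, and its baseline replicate 3 lay below the other baseline arrays. GLR1.4 and GLR3.6 fell by 0.41 and 0.27, the latter not called without baseline replicate 2 (-0.22) or 20% replicate 3 (-0.19). Among 8 calmodulin-like genes 1 rose and 1 fell. The falling member was CML42 (AT4G20780), a calcium sensor known from trichome branching, at 5.78 to 5.99 and 4.80 to 5.15, a fall of 0.89 ± 0.07. The rising member, CML23, differed by 0.54 ± 0.17 (adjusted p 0.016) with overlapping groups, and was not called without replicate 2 of the baseline (0.37) or of the 20% state (0.43).

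Kinases and peptide signals fell more often than they rose, by a margin that shrank when arrays were centred on their medians. Receptor kinases changed in few members. In a list of 13 MAP kinases and other cytoplasmic kinases 6 fell and 2 rose (median -0.07), and none rose without 20% replicate 3 or baseline replicate 4. With arrays centred on their medians 5 fell and 4 rose. ATMPK8 (AT1G18150), a MAP kinase linked to wounding, read 8.45, 8.19, 8.23 and 8.26 at baseline and 6.83, 6.75, 7.10 and 6.94 at 20% inhibition. It fell by 1.38 ± 0.09 (adjusted p 1.7e-09), with every heated array below every baseline array. AT5G49470 (listed with the synonym RAF10, a Raf-like kinase) fell by 0.60 ± 0.08 and WNK7 by 0.52 ± 0.07. Receptor kinases were mostly flat, with 3 of 22 falling and 1 rising, shares below those of the array. PSY1R (AT1G72300), a leucine-rich repeat receptor kinase named for a growth-promoting sulfated peptide, read 6.34, 6.50, 6.47 and 6.72 at baseline and 5.47, 5.61, 5.86 and 5.21 at 20% inhibition and fell by 0.97 ± 0.12 (adjusted p 3.4e-06). GSO1, a receptor kinase of surface barriers, rose by 0.59 ± 0.14, and EFR, which recognises a bacterial elongation factor, fell by 0.27 ± 0.08 with overlapping groups. Of 18 RALF and CLE peptide genes 6 fell and 2 rose (median -0.11), a share of falls near the 29.0% among genes with a symbol. With centred arrays 4 fell and 3 rose. RALFL24 (AT3G23805), of a family of peptides that restrain cell expansion, read 8.10, 8.01, 8.19 and 7.94 at baseline and 7.07, 7.13, 7.46 and 7.07 at 20% inhibition and fell by 0.88 ± 0.09. RALFL22 rose by 0.75 ± 0.21, with 9.43 in replicate 3 against 8.11 to 8.34 in the other arrays at 20% inhibition. CLE44, which encodes a peptide that keeps vascular stem cells dividing, fell by 0.36.

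**Figure D2:**
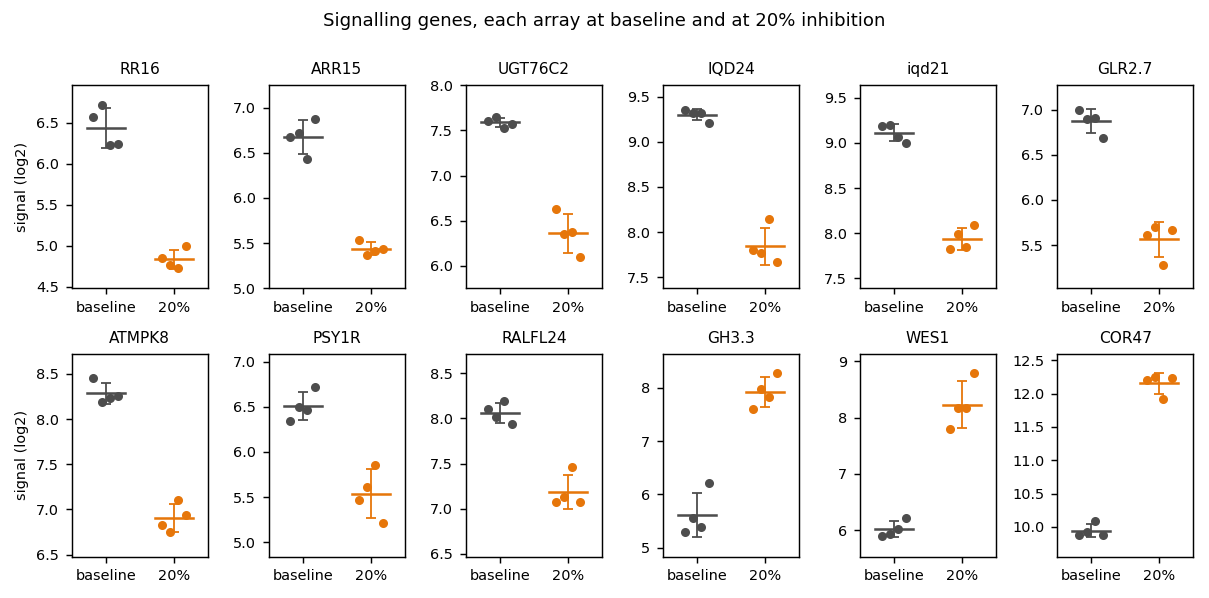
Log2 signal of 12 signalling genes in each of the 4 baseline arrays (grey) and the 4 arrays at 20% inhibition (orange), replicates 1 to 4 from left to right, with means (lines) and SD (bars). The first 9 genes, RR16 to RALFL24, are lower in every heated array, and GH3.3, WES1 and COR47 are higher in every heated array.

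Hormone groups other than cytokinin did not move one way. Of 19 auxin genes 6 rose and 2 fell, with a median of -0.01. GH3.3 (AT2G23170) and WES1 (AT4G27260), acyl amido synthetases that conjugate auxin to amino acids, rose most. GH3.3 read 5.30, 5.55, 5.38 and 6.21 at baseline and 7.60, 7.98, 7.83 and 8.28 at 20% inhibition, a rise of 2.31 ± 0.19 (adjusted p 2.7e-08). WES1 read 5.90 to 6.22 and 7.79 to 8.79, a rise of 2.21 ± 0.25 (adjusted p 1.3e-06). Neither pair of groups overlapped. IAA29, an auxin response repressor, rose by 0.48 ± 0.10, and IAGLU, which attaches glucose to auxin, fell by 0.56 ± 0.10. Of 19 genes of abscisic acid and dehydration 8 rose and 2 fell (median 0.15, with 4 rises with the 25S covariate). TIL (AT5G58070), a temperature-induced lipocalin of the plasma membrane, read 11.14, 11.06, 10.97 and 11.07 at baseline and 13.82, 13.72, 13.60 and 13.92 at 20% inhibition and rose by 2.70 ± 0.07 (adjusted p 1.1e-14). The dehydration-linked genes DI21 and RD2 rose by 1.32 and 0.87, beside COR47 at 2.21 and COR15B at 1.46. Among the smaller lists, jasmonate had 2 falls in 5, JMT at -0.32 and MYC4 at -0.37, the latter not called without baseline replicate 1 or 2 or 20% replicate 3 or 4 (-0.37 to -0.25). Among the others were immune signalling with 2 falls in 9 and gibberellin and brassinosteroid genes with 2 rises and 2 falls in 9. EIN3, the master transcription factor of ethylene responses, differed by -0.28 ± 0.10 (adjusted p 0.025) with overlapping groups, and was not called without baseline replicate 1, 2 or 4 or 20% replicate 1 or 2 (-0.27 to -0.20). ETP2 and RTE1 of the same pathway differed by -0.21 and 0.08 and did not pass.

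Transcription factors changed in both directions. Of 23 bZIP genes 7 rose and 5 fell (median 0.05), with 8 falls without replicate 3 of the 20% state, 3 when replicate 2 of either state was left out, and 2 with the 25S covariate. All 3 members made as proteins anchored in the endoplasmic reticulum membrane rose, a subgroup picked after its values were seen. They were BZIP28 (AT3G10800) at 1.97 ± 0.06, BZIP17 (AT2G40950) at 1.09 ± 0.09 and BZIP60 at 1.00. BZIP28 read 7.80, 7.75, 7.66 and 7.68 at baseline and 9.72, 9.73, 9.61 and 9.69 at 20% inhibition, a narrow spread in both states. bZIP44 (AT1G75390) rose by 1.29 ± 0.13. HYH (AT3G17609), the close relative of the light-signalling factor HY5, read 6.08, 6.14, 6.11 and 5.85 at baseline and 4.71, 4.69, 4.55 and 4.71 at 20% inhibition and fell by 1.38 ± 0.09 (adjusted p 1.0e-09). The iron-homeostasis bHLH factors moved in opposite directions. bHLH34, bHLH104 and bHLH115, early activators of the iron-deficiency response, fell by 0.75, 0.45 and 0.42, whereas bHLH121, PYE and BHLH101 rose by 0.61, 0.44 and 0.33. BHLH101 was not called without baseline replicate 3 (0.28) or 20% replicate 2 (0.24), and the last of the 7 measured genes, ILR3, differed by -0.10 and did not pass.

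Leaf-shape regulators changed in 5 of 8 measured genes. NGA1 (AT2G46870), a B3 factor of leaf margins, read 6.80 to 7.02 at baseline and 5.67 to 5.96 at 20% inhibition and fell by 1.04 ± 0.11 (adjusted p 3.4e-07), NGA2 fell by 0.36, and YAB3, which marks the lower side of the leaf, fell by 0.62 ± 0.09. PHV, which specifies the upper side, and TCP15 rose by 0.42 and 0.38. Of 40 MADS-box genes 2 fell and 3 rose, and the 2 falls exceeded 1 log2 unit, AGL16 (AT3G57230) at -1.23 ± 0.08 and AGL87 at -1.11 ± 0.12. Among 10 clock and light genes 4 rose and 2 fell (4 fell without replicate 3 of the 20% state). GI (AT1G22770), an evening-phased clock component, rose by 1.88 ± 0.07, XCT by 0.99 ± 0.11 and COR27 by 1.05 ± 0.17. COR27 read 4.10 to 4.24 at baseline, near the bottom of the array's range, and 4.77, 5.16, 5.95 and 4.95 at 20% inhibition. STZ (AT1G27730), a stress-induced zinc finger repressor, rose by 1.88 ± 0.35 over a wide baseline spread, 5.02 to 6.77, with 7.41 to 8.53 at 20% inhibition. AT5G61590, an ERF-family factor listed with the synonym DEWAX and known to repress wax genes, read 8.90, 8.81, 8.63 and 9.16 at baseline and 6.19, 6.30, 9.95 and 6.57 at 20% inhibition. Its difference of -1.62 ± 0.56 passed the test (adjusted p 0.026) with overlapping groups. Without replicate 3 it was -2.52, the call ended without baseline replicate 1 or 4 or 20% replicate 1, 2 or 4, and it was 0.27 with the 25S covariate.

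Genes that sense or clear damaged protein rose in most measured members. Of 9 genes of endoplasmic reticulum stress and degradation, among them BZIP28 of the bZIP list, 7 rose and none fell (median 1.09). Of 11 autophagy genes 9 rose and none fell (median 0.58), and 6 rose with the 25S covariate. Among genes with a symbol 21.8% rose. DER1 (AT4G29330), a derlin of the channel through which misfolded protein leaves the endoplasmic reticulum, read 8.07, 8.33, 8.07 and 8.01 at baseline and 11.60, 11.91, 11.19 and 11.87 at 20% inhibition and rose by 3.52 ± 0.13 (adjusted p 1.2e-12). DER2.1, another derlin, rose by 1.70, while DER2.2 differed by -0.11 and did not pass. OS9 (AT5G35080), the lectin that picks glycoproteins for that route, read 6.81 to 7.00 and 8.54 to 8.75, a rise of 1.72 ± 0.08 (adjusted p 2.6e-11). UBC32, a ubiquitin-conjugating enzyme of the same route, rose by 0.47. In autophagy, the ubiquitin-like ATG8 proteins coat the growing autophagosome. ATG8D (AT2G05630) read 6.54, 6.37, 5.77 and 6.32 at baseline and 8.28, 8.57, 8.58 and 8.73 at 20% inhibition and rose by 2.29 ± 0.14 (adjusted p 5.4e-10). APG8A and ATG8H rose by 1.20 ± 0.11 and 1.04 ± 0.14, ATG8C, ATG8E and ATG8B by 0.72, 0.70 and 0.47, and ATG3, which conjugates ATG8 to lipid, by 0.58. ATG8F and ATG8G differed by 0.09 and 0.06 and did not pass the test.

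The ubiquitin system itself changed in both directions. Of 21 RING and U-box ligases 6 rose and 8 fell, with 5 falls without 20% replicate 2 and 2 with the 25S covariate. LUL1 (AT5G03200) read 6.14 to 6.36 at baseline and 8.08 to 8.44 at 20% inhibition and rose by 2.09 ± 0.08 (adjusted p 1.2e-12). PUB19 (AT1G60190), which restrains abscisic acid responses, rose by 1.34 ± 0.15, and its immune-related relatives PUB23 and PUB24 moved apart, at 0.67 and -0.37. ATL8 fell by 0.57 ± 0.08. Ubiquitin-conjugating enzymes had 5 rises and 2 falls in 13, led by UBC20 at 0.84 ± 0.16, and ubiquitin-specific proteases 1 rise and 5 falls in 12 (3 falls without replicate 3 of the 20% state and 2 without baseline replicate 1 or 2), led by UBP21 (AT5G46740), which fell by 1.08 ± 0.13 from 6.00 to 6.56 at baseline to 5.11 to 5.30. Secreted and vacuolar proteases fell at about the 29.0% share of genes with a symbol. Of 29 serine carboxypeptidase-like genes 9 fell and 4 rose (2 without baseline replicate 1), with scpl46 at -1.31 ± 0.09 and SCPL49 at 1.3 ± 0.07, and of 14 subtilases and vacuolar processing enzymes 4 fell (2 with the 25S covariate) and 1 rose, with ARA12 (AT5G67360), the abundant subtilase of the cell wall, at -1.24 ± 0.06. None of the 4 vacuolar processing enzymes passed the test.

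**Figure D3:**
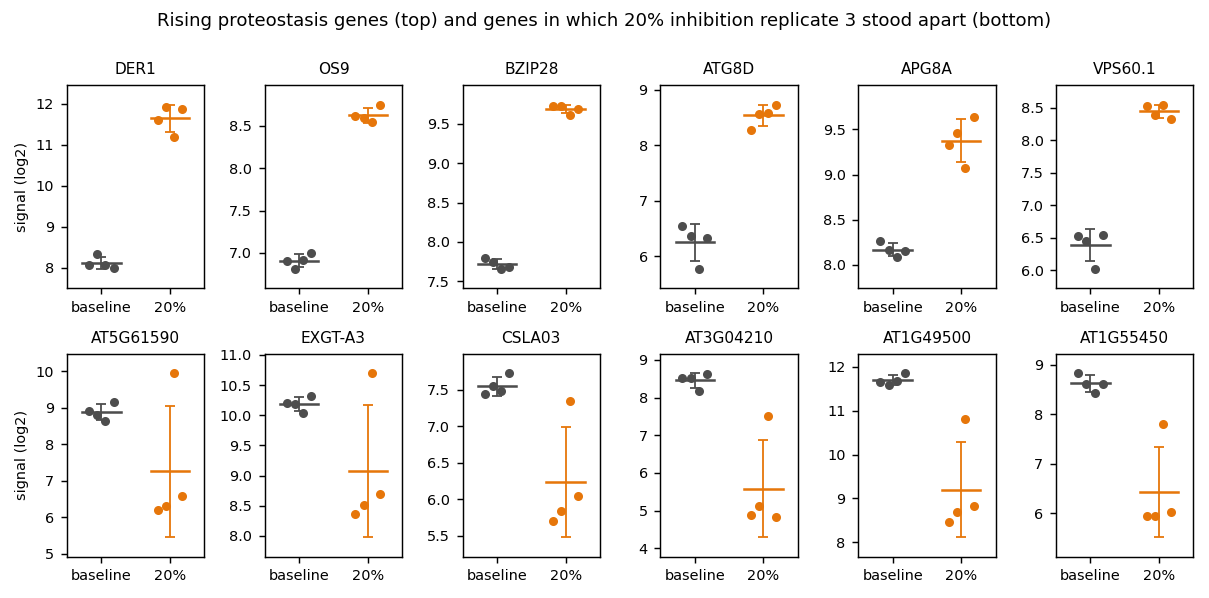
Log2 signal of 12 genes in each baseline array (grey) and each array at 20% inhibition (orange), replicates 1 to 4 from left to right, with means and SD. In the top row DER1, OS9, BZIP28, ATG8D, APG8A and VPS60.1 are higher in all 4 heated arrays. In the bottom row replicate 3 of the heated state lies above the other 3 heated arrays, as in AT5G61590 at 9.95 against 6.19 to 6.57. Replicate 3 is also above the baseline arrays in AT5G61590, but below them in AT3G04210.

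Sucrose synthesis and sugar transport fell in the members that changed, with 1 exception. Of 9 genes of sucrose synthesis and sugar transport 5 fell and none rose (median -0.23). ATSPS4F (AT4G10120), a sucrose-phosphate synthase, read 10.29, 10.19, 9.79 and 10.12 at baseline and 7.62, 7.41, 7.42 and 7.00 at 20% inhibition. It fell by 2.74 ± 0.17 (adjusted p 6.2e-10), with more than 2 log2 units between the groups. SFP1, a monosaccharide transporter-like gene, fell by 1.38 ± 0.16. Of 15 SWEET genes, which let sugars cross membranes down their gradient, 4 fell, 1 rose and 10 did not pass the test. That share of falls is like the 29.0% among genes with a symbol. SWEET13 (AT5G50800), which with SWEET11 and SWEET12 releases sucrose for phloem loading, read 8.39, 8.16, 8.07 and 8.04 at baseline and 6.19, 6.02, 6.26 and 5.95 at 20% inhibition and fell by 2.06 ± 0.12 (adjusted p 4.6e-10), and SWEET11 fell by 0.88 ± 0.12. The vacuolar carrier SWEET2 (AT3G14770) read 8.40, 8.33, 8.19 and 8.29 and then 6.23, 6.05, 6.17 and 5.94, a fall of 2.21 ± 0.13 (adjusted p 4.7e-10). The plasma membrane glucose carrier SWEET1 (AT1G21460) went the other way, from 8.28, 8.46, 8.53 and 8.38 to 9.76, 9.69, 9.49 and 9.77, a rise of 1.27 ± 0.07 (adjusted p 1.7e-10). In the starch list of 6 genes 4 rose and 1 fell (2 rises with the 25S covariate), with PWD at 1.51, DPE1 at 1.22 and AMY1 at 0.33 among the rises.

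In glycolysis and pyruvate metabolism 5 of 7 measured genes fell and 1 rose (median -0.32). F2KP (AT1G07110), which makes and degrades the signal metabolite fructose 2,6-bisphosphate, read 10.51, 10.56, 10.34 and 10.40 at baseline and 8.97, 9.05, 9.08 and 8.97 at 20% inhibition and fell by 1.43 ± 0.07 (adjusted p 2.6e-11). PPDK, which regenerates phosphoenolpyruvate, and GAPC2, a cytosolic glyceraldehyde-3-phosphate dehydrogenase, fell by 1.10 ± 0.13 and 0.90 ± 0.07. The rising member was PDC2 (AT5G54960), a pyruvate decarboxylase of ethanol fermentation, at 7.90, 7.86, 7.85 and 8.06 and then 10.60, 10.76, 10.38 and 10.68, a rise of 2.69 ± 0.09 (adjusted p 3.1e-13). The 11 genes of the TCA cycle held 4 falls and 2 rises (median -0.05). MAB1, a subunit of pyruvate dehydrogenase, fell by 0.58 ± 0.07 and SDH1-1, the flavoprotein of succinate dehydrogenase, by 0.80 ± 0.08. Isocitrate dehydrogenase genes diverged, with IDH-VI at -0.79 ± 0.06, IDH-V at 0.55 ± 0.08 and ICDH at 0.52 ± 0.08. ACLB-1, the B subunit of cytosolic ATP-citrate lyase, fell by 0.87 ± 0.07, and ACLA-3 of the A subunit rose by 0.22 but was not called without baseline replicate 1, 3 or 4 or 20% replicate 4 (0.13 to 0.22). ACLA-1 and ACLA-2 differed by -0.08 and 0.07 and did not pass. In the breakdown of branched-chain amino acids 4 of 11 genes rose and 1 fell, with ALDH6B2 at 0.66 ± 0.07, MCCA at 0.65 ± 0.07 and IVD at -0.40 ± 0.11.

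Transporters and enzymes of nitrogen and sulfur changed in opposing members. Of 12 measured members of the nitrate and peptide transporter family 4 fell and 2 rose (median -0.03). AT1G68570 (synonym NPF3.1) read 8.97, 8.88, 9.00 and 9.01 at baseline and 6.63, 6.80, 6.50 and 6.79 at 20% inhibition and fell by 2.29 ± 0.08 (adjusted p 4.4e-13). AT3G21670 (synonym NPF6.4) read 11.35, 11.31, 11.44 and 11.29 and then 9.75, 9.84, 9.17 and 9.60, a fall of 1.76 ± 0.12 (adjusted p 3.2e-09). GTR2 and GTR1, which import glucosinolates into cells around the veins, fell by 1.33 ± 0.07 and 0.96 ± 0.19, the latter with 8.70 in replicate 3 against 7.56 to 8.17 in the other heated arrays and -0.45 (adjusted p 0.08) with the 25S covariate. AT2G26690 (synonym NPF6.2) rose by 0.98 ± 0.08. Of 7 genes of nitrogen and sulfur assimilation 2 rose and 3 fell (median 0.08), and none rose with the 25S covariate. APS3 (AT4G14680), an ATP sulfurylase of sulfate reduction, fell by 1.02 ± 0.13 and SIR, the sulfite reductase, by 0.69 ± 0.05. The rising members were OASA2, of the cysteine synthase family, at 0.39 ± 0.09 and APS4, another ATP sulfurylase, at 0.18 ± 0.07, the latter not called without baseline replicate 2, 3 or 4 or 20% replicate 2 or 4 (0.12 to 0.18).

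Antioxidant and specialised metabolism contained several falls of 2-fold or more. VTC4 (AT3G02870), the phosphatase that frees galactose on the way to ascorbate, read 10.67, 10.66, 10.65 and 10.80 at baseline and 9.18, 9.24, 8.93 and 9.07 at 20% inhibition and fell by 1.59 ± 0.09 (adjusted p 2.9e-10). GME, an earlier enzyme of that route, fell by 0.85, and with the glutathione reductases GR1 (-1.45) and GR (-1.20) made up the 4 falls among 8 genes of ascorbate and glutathione (median -0.58). ATMDAR2, which recycles ascorbate, rose by 0.60 ± 0.11. LYC (AT3G10230), lycopene beta-cyclase of carotenoid synthesis, read 10.50, 10.41, 10.28 and 10.12 at baseline and 9.21, 9.10, 8.62 and 9.09 at 20% inhibition and fell by 1.33 ± 0.13 (adjusted p 1.8e-07). In phenylpropanoids 4 of 16 genes fell and 4 rose, but the falls were larger, with CHIL, a chalcone isomerase-like helper of flavonoid synthesis, at -1.21 ± 0.12 and HCT of lignin precursor synthesis at -0.95 ± 0.08, against rises of at most 0.31. Only 2 genes rose without baseline replicate 1, 2 or 3 or 20% replicate 1 or 4. Of 49 UDP-glycosyltransferases 14 fell and 9 rose (5 without baseline replicate 2), near the 29.0% falling and 21.8% rising among genes with a symbol. UGT74D1 (AT2G31750) was at -1.73 ± 0.09 and UGT73B1 at 1.16 ± 0.13. Cytochrome P450 genes had 8 falls and 2 rises in 23, led by CYP71B24 at -1.3 ± 0.10. No listed P450 gene rose without baseline replicate 2 or 4 or 20% replicate 2 or 4. Glutathione S-transferases had 4 falls and 2 rises in 14, led by GSTU27 at -1.60 ± 0.16. The shares of falls in phenylpropanoids and glutathione S-transferases were also near 29.0%.

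Lipid and wax genes fell in 7 of 16 measured members and rose in 2, and 4 fell with the 25S covariate. WSD1 (AT5G37300), which makes wax esters, read 8.01, 8.17, 8.02 and 8.0 at baseline and 6.61, 6.70, 6.07 and 6.44 at 20% inhibition and fell by 1.60 ± 0.22 (adjusted p 1.2e-05). AT4G13840, listed with the synonym CER26 and needed for long wax chains, fell by 1.13 ± 0.10, and AAPT2 of phospholipid synthesis fell by 0.99. The thioesterases that end plastid fatty acid synthesis moved apart, FATB at -0.69 and FaTA (AT3G25110) at 1.51 ± 0.11. FaTA read 5.71 to 6.16 at baseline and 7.19 to 7.61 at 20% inhibition, without overlap.

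**Figure D4:**
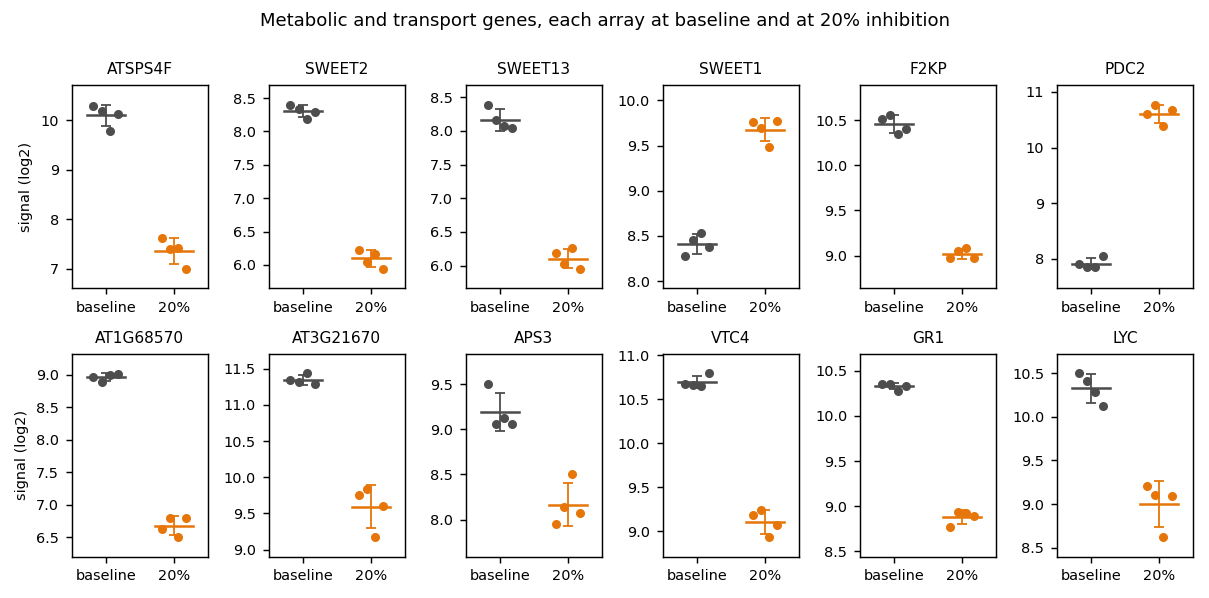
Log2 signal of 12 metabolic and transport genes in each baseline array (grey) and each array at 20% inhibition (orange), replicates 1 to 4 from left to right, with means and SD. SWEET1 and PDC2 are higher in every heated array, and the other genes, from ATSPS4F with a fall of 2.74 to APS3 with a fall of 1.02, are lower in every heated array.

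The cell wall lists held more falls than rises, at shares near the 29.0% falling among genes with a symbol or above it. Of 29 expansins and xyloglucan enzymes, which loosen the wall, 8 fell and none rose, with a median of -0.05, and with the 25S covariate 3 rose. EXPB1 (AT2G20750) read 9.12, 9.06, 9.17 and 9.09 at baseline and 7.54, 7.54, 6.80 and 7.11 at 20% inhibition and fell by 1.86 ± 0.16 (adjusted p 5.1e-08), beside EXPA8 at -2.34, and XTH32, EXPA9 and EXPA16 fell by 1.07, 0.94 and 0.81. EXGT-A3 (AT2G01850), a xyloglucan endotransglycosylase, read 8.37, 8.52 and 8.70 in 3 heated arrays and 10.70 in replicate 3, against 10.03 to 10.32 at baseline. Its difference of -1.12 ± 0.35 (adjusted p 0.015) lost its call without 20% replicate 1 or 2 and was 0.03 with the 25S covariate. Of 23 cellulases and cellulose synthase-like genes 9 fell and 1 rose. GH9C2 (AT1G64390), an endoglucanase, read 10.81, 10.89, 10.81 and 10.77 and then 9.37, 9.34, 8.33 and 9.06, a fall of 1.79 ± 0.15 (adjusted p 5.0e-08). In the CSLC family, whose members build the backbone of xyloglucan, 4 of 5 genes fell, a subgroup picked after its values were seen, with CSLC5 at -1.34 ± 0.09, CSLC04 at -1.14, CSLC6 at -0.84 and ATCSLC08 at -0.80, while CSLC12 differed by -0.01. CSLA03, a mannan synthase family gene, fell by 1.32 ± 0.25 with 7.35 in replicate 3 against 5.70 to 6.05 in the other heated arrays. Of 27 trichome birefringence-like and xylan genes, most of them wall acetyltransferases, 9 fell and 6 rose (2 with the 25S covariate), with TBL28 at -1.41 ± 0.10 and GUT1, a xylan synthase component, at 0.79 ± 0.08.

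Nuclear genes for the photosynthetic apparatus fell in 11 of 22 measured members and rose in 3 (median -0.15). All 3 measured nuclear subunits of the chloroplast NDH complex, NdhN, NdhL and NdhS, which feed electrons back to plastoquinone, fell by 0.78, 0.58 and 0.41 (a subgroup picked after its values were seen). PGRL1B (AT4G11960), of the other cyclic electron route, rose by 0.97 ± 0.06 from 8.47 to 8.53 at baseline to 9.41 to 9.56. LHCB4.3, a minor antenna protein, fell by 0.87 ± 0.13 while LHCB4.1 and LHCB4.2 differed by -0.06 and -0.03 and did not pass. LPA19, an assembly factor of photosystem II, rose by 0.70 ± 0.10. In the chlorophyll pathway 3 of 13 genes rose and 3 fell. PORB, which reduces protochlorophyllide in the light, rose by 0.96 ± 0.09, and LIL3:2 and LIL3:1, which anchor enzymes of the pathway, fell by 0.67 and 0.42. Of 13 organelle RNA editing factors 7 fell and 1 rose (median -0.29), against 29.0% falling among genes with a symbol. CRR21 and CRR28, which edit transcripts of NDH subunits, fell by 1.18 ± 0.15 and 0.99 ± 0.09, LPA66, which edits a photosystem II transcript, by 0.99 ± 0.08, and MEF8S rose by 0.91 ± 0.12.

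RNA processing contained more rises. Of 26 genes of splicing, export and decay 14 rose and 6 fell (median 0.27), with 9 rises with the 25S covariate. U2AF35B (AT5G42820), a small subunit of the factor that marks 3' splice sites, read 7.52, 7.55, 7.62 and 7.33 at baseline and 8.60, 8.84, 8.59 and 8.99 at 20% inhibition and rose by 1.25 ± 0.10 (adjusted p 2.7e-08). Its partner ATU2AF35A rose by 0.97 ± 0.09 and the large subunit ATU2AF65A by 0.58. DDL and SE, which act in microRNA processing, rose by 0.78 and 0.70. In the THO complex, which couples transcription to export, THO1, THO7 (AT3G02950) and TEX1 fell by 0.78, 0.62 and 0.47 and THO5 rose by 0.57. Among 23 chromatin genes 7 fell and 4 rose. Histone H2B genes, picked after their values were seen, gave 3 falls and 1 rise, with HTB11 at -1.16 ± 0.10, HTB1 at -0.73, HTB2 at -0.67 and HTB4 at 0.25, and cross-hybridisation between such near-identical genes was not tested.

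Membrane traffic genes changed in both directions. Of 34 vesicle traffic genes 11 fell and 7 rose (median -0.01), shares like those of genes with a symbol. In the exocyst, which tethers secretory vesicles to the plasma membrane, 5 of 7 genes fell and none rose, by 0.43 (SEC15B) to 0.24 (SEC15A), and in ESCRT-III and associated proteins, which bud vesicles into endosomes, 6 of 10 rose and 2 fell. Both subgroups were picked after their values were seen. SEC15B was -0.18 (adjusted p 0.27) with the 25S covariate, and SEC15A was not called without replicate 2 of the baseline (-0.20) or of the 20% state (-0.22). VPS60.1 (AT3G10640) read 6.52, 6.45, 6.02 and 6.54 at baseline and 8.52, 8.38, 8.54 and 8.33 at 20% inhibition and rose by 2.06 ± 0.11 (adjusted p 1.4e-10), and VPS20.1 rose by 0.93 ± 0.10. TET2 (AT2G19580), a tetraspanin, read 7.13, 6.96, 7.17 and 7.09 and then 9.29, 9.38, 9.19 and 9.65, a rise of 2.29 ± 0.12 (adjusted p 1.0e-10), whereas TET3 fell by 1.23 ± 0.10. The Golgi manganese transporter MTP11 (AT2G39450) fell by 1.50 ± 0.08 from 9.82 to 10.01 at baseline to 8.33 to 8.54. In the cytoskeleton 7 of 29 genes rose and 4 fell. WLIM2a, which bundles actin, rose by 1.54 ± 0.08, TUB1, a beta-tubulin, by 1.73 ± 0.23, and ACT11 fell by 1.45 ± 0.17.

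In the heat shock and chaperone list 19 of 21 genes rose and 1 fell, with a median of 2.22. Its largest rises were AT5G48570 at 8.68 ± 0.16, Hop3 at 8.40 ± 0.19 and ATHSP22.0 at 7.43 ± 0.11. Outside that list and the further heat shock genes set aside with it, the largest rises among probe sets named for 1 gene were those of AT1G71000 (8.22 ± 0.16), AT5G25450 (7.01 ± 0.11), AT5G10695 (6.97 ± 0.23) and AT1G72660 (6.57 ± 0.11), loci without a symbol that may include further chaperones. AT1G71000 read 3.91, 3.95, 3.86 and 4.10 at baseline, near the bottom of the array's range, and 12.24, 12.19, 12.03 and 12.26 at 20% inhibition. The largest falls were those of AT2G27420 (-3.88 ± 0.11), AT5G59670 (-3.59 ± 0.15), AT5G54130 (-3.03 ± 0.08) and AT3G04210 (-2.88 ± 0.41), all without a symbol in the annotation. AT5G54130 read 8.38, 8.20, 8.25 and 8.42 at baseline and 5.14, 5.30, 5.36 and 5.33 at 20% inhibition, whereas AT3G04210 read 8.52, 8.52, 8.18 and 8.62 and then 4.87, 5.13, 7.51 and 4.82. Without replicate 3 the fall of AT3G04210 was 3.52. Of the 1850 probe sets that changed at least 2-fold, 855 rose and 995 fell, and 435 and 468 of these were named for 1 gene. The extremes of the whole array, a rise of 9.64 and a difference of -4.50, belong to probe sets with no gene in the table used here.

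The neighbouring states place these changes within the heating curve, although each of these tests uses the same 4 arrays at 20% inhibition. Between the optimum and 20% inhibition 9477 probe sets (41.7%) differed, 45.0% of them higher at 20% inhibition and 62.1% when arrays were centred on their medians. Between 20% and 30% inhibition 1629 (7.16%) differed, 58.5% of them higher at 30% and 46.4% when centred. RR16 read 5.0 to 5.64 at the optimum, between the baseline and the 20% arrays, and was lower at 20% inhibition by 0.45 ± 0.14 (adjusted p 0.014, not called at -0.33 without optimum replicate 2), and at 30% it read 4.40 to 4.85 and did not pass. HYH read 4.85 to 4.99 at the optimum, above every 20% array and below every baseline array. ATSPS4F read 8.53 to 8.67 at the optimum, was 1.24 ± 0.17 lower at 20% and fell by a further 0.92 ± 0.17 at 30% (adjusted p 0.0025). TET2 read 6.98 to 7.13 at the optimum, like the baseline, and was higher at 20% inhibition by 2.34 ± 0.12. With the same heat shock genes and unnamed probe sets left aside, the largest rises past the optimum were those of AT1G72660 (6.52), AT1G71000 (5.72), AT5G25450 (5.18), AT4G23493 (5.17) and AT4G19430 (4.91), and the largest falls those of AT1G35710 (-3.00), AT3G04210 (-2.92, or -3.56 without 20% replicate 3), AT5G55450 (-2.69), AT1G55450 (-2.65) and AT5G59670 (-2.54).

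Several genes repressed at 20% inhibition were higher again at 30%. P1R1 (AT5G57780) read 8.61, 8.60, 8.38 and 8.48 at baseline, 5.91, 6.16, 6.21 and 6.49 at 20% and 7.88, 7.48, 7.73 and 7.91 at 30% inhibition, a rise of 1.56 ± 0.12 between the last 2 states (adjusted p 8.4e-07). AT1G04770 fell by 1.41 ± 0.24 to 20% and was higher by 1.74 ± 0.24 at 30%. In the transporter list, AT3G21670 and AT1G68570 were higher at 30% than at 20% by 0.54 and 0.36, the former not called (adjusted p 0.062) when the 8 arrays compared were fitted alone. UGT74B1, a glucosyltransferase of glucosinolate synthesis, was higher by 0.66. APS3 was higher by 0.60 ± 0.13. Going the other way, PUB19 fell by 0.94 ± 0.15 and IDH-V by 0.73, and in branched-chain breakdown MCCA fell by 0.37. The largest falls from 20% to 30% were those of AT4G27657 (-1.89), AT1G14200 (-1.74), AT4G27652 (-1.74), AT5G47610 (-1.72) and AT5G35320 (-1.50). The largest rises, besides P1R1 and AT1G04770, were those of AT1G07050 (2.45), AT5G28430 (1.61) and COR27 (1.51). AT5G28430 differed by 0.04 between 20% inhibition and baseline and did not pass there.

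**Figure D5:**
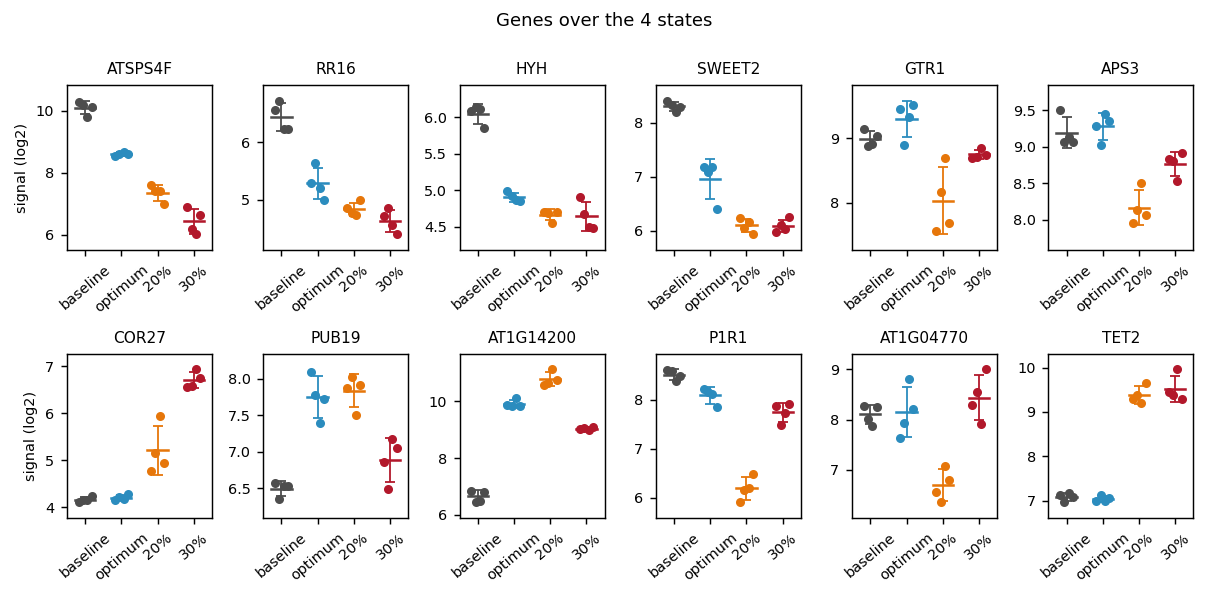
Log2 signal of 12 genes in the 4 arrays of each state, baseline (grey), optimum (blue), 20% (orange) and 30% inhibition (red), with means and SD. ATSPS4F is lower in each further state, HYH and RR16 are already low at the optimum, TET2 is high at 20% and 30% inhibition, and APS3, P1R1 and AT1G04770 have their lowest means at 20% inhibition.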

How the data were processed

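Total RNA of 16 leaf samples, 4 per state, was hybridised singly to Affymetrix ATH1 arrays. The deposited log2 signals were made by the authors with RMA (robust multi-array averaging), and limma is also named, per the submitters' processing notes. No versions of either are stated. The signals ran from 3.25 to 14.7, with array medians of 6.07 to 6.19, and were used as deposited.

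After 64 of 22810 probe sets were set aside as controls, a model with 1 mean per state was fitted to all 16 arrays with limma 3.58.1 in R 4.3.3 (12 residual and 4.21 prior degrees of freedom), and p-values were adjusted by the Benjamini-Hochberg method over 22746 probe sets. Tables and figures were made with Python 3.11.15, pandas 2.3.3 and matplotlib 3.10.9. The fit was tested on simulated data. Platform annotation, updated through RefSeq gene identifiers, named 13513 probe sets for 1 gene, 503 for several and 8730 for none. The brightest probe set stood for each of 13355 genes.

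The 69 gene lists (957 genes) were drawn from annotation names, and members and lists were chosen with earlier results of these data known. Named genes came from the 12 largest rises and 12 largest falls outside the chaperones. Others came from up to 3 called genes per list and direction, and from lists with at most 4 measured members. The 5 largest changes each way against the neighbouring states were also used. Not every gene or list so chosen is described. Further list members, the subgroups and the genes of the replicate 3 plot were chosen after their values were seen. Alternatives were other priors, array subsets, normalisations, array weights, a replicate block, a 25S covariate, thresholds and single arrays left out. Promoter motifs were not analysed here.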

Additional observations from a re-analysis of the deposited data

Results flagged for a closer look

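For the 230 genes named, 460 groups of 4 arrays (baseline and 20% inhibition) were screened for 1 array far from the other 3 by Dixon's test at its 95% limit. The screen found 31 groups, and chance gives about 1 group in 20.

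Of the 31 values, 12 were in replicate 3 at 20% inhibition, where genes of the plot of replicate 3 had been chosen for this. It was above the other heated arrays in RALFL24 (7.46 against 7.07 to 7.13), RALFL22 (9.43 against 8.11 to 8.34), AT5G61590 (9.95 against 6.19 to 6.57), EXGT-A3 (10.70 against 8.37 to 8.70), AT3G04210 (7.51 against 4.82 to 5.13), AT1G49500 (10.81 against 8.46 to 8.83) and AT1G55450 (7.79 against 5.94 to 6.02). It was below them in COR47 (11.92 against 12.20 to 12.25), HYH (4.55 against 4.69 to 4.71), Hop3 (12.31 against 12.64 to 12.70), AT5G47610 (11.35 against 12.05 to 12.12) and XTH32 (9.19 against 9.60 to 9.66). At 20% inhibition, other replicates stood apart in bHLH115 (8.45 against 8.56 to 8.57, replicate 2), LHCB4.3 (9.82 against 10.02 to 10.04, replicate 4), GLR1.4 (4.47 against 4.64 to 4.66, replicate 2), IQD31 (8.12 against 8.25 to 8.27, replicate 1) and ACLA-3 (9.20 against 8.81 to 8.88, replicate 4).

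At baseline, 1 array stood apart in GLR3.3 (7.20 against 7.36 to 7.39, replicate 3), bHLH104 (8.80 against 8.94 to 8.97, replicate 1), ARA12 (10.00 against 10.18 to 10.21, replicate 4), APS3 (9.50 against 9.06 to 9.13, replicate 1), WSD1 (8.17 against 8.0 to 8.02, replicate 2), VTC4 (10.80 against 10.65 to 10.67, replicate 4) and UGT73B1 (5.79 against 6.27 to 6.30, replicate 4). The same was seen in THO1 (8.06 against 8.31 to 8.35, replicate 4), AT5G10695 (5.51 against 6.17 to 6.23, replicate 2), EIN3 (9.34 against 9.52 to 9.55, replicate 3), THO7 (6.76 against 6.54 to 6.56, replicate 3), UGT74B1 (9.92 against 9.60 to 9.63, replicate 1), LCR69 (9.82 against 8.79 to 8.84, replicate 3) and THI2.2 (8.99 against 9.09 to 9.11, replicate 2). Replicate 3 held 4 of these baseline values.

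The control probe set for 25S ribosomal RNA, outside the gene measurements, reached 12.99 at 20% inhibition against 5.55 to 6.41 at baseline. Its part in these values was not tested.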

How the results depend on the processing

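Between 20% inhibition and baseline the counts of called probe sets stayed within 1.5 times of 9976 (7920 to 10535) under every alternative but the 2-fold threshold, which kept 1850. At that threshold 1143 of 9477 probe sets remained against the optimum and 82 of 1629 between 30% and 20% inhibition. That last count was also 915 with the 8 arrays compared alone and 728 at an adjusted p under 0.01. With single arrays left out the 3 counts ran from 9126 to 10040, 8363 to 9387 and 1178 to 2153, and the listed genes called from 409 to 454, against 456 with all arrays.

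The replicate numbers were not taken as pairs: deviations of same-numbered arrays correlated at 0.02, 0.10, -0.10 and -0.18 between baseline and 20%, and at 0.10, 0.26, 0.09 and 0.31 between optimum and 20%. With the replicate block 9815, 9238 and 1440 probe sets and 451 listed genes were called, and no named gene lost its call. Median centring moved the median over all probe sets by less than 0.1 in each comparison.

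Of 215 called named genes, 21 lost the call with the 25S covariate. AT5G61590 and EXGT-A3 reversed, to 0.27 and 0.03. The rest kept their sign, CSLC04 at -0.35, GTR1 at -0.45, IQD23 at -0.43, JMT at -0.34, NGA2 at -0.30, PUB24 at -0.28, EFR at -0.24, SEC15A at -0.22, EIN3 at -0.20, SEC15B at -0.18, iqd32 at -0.07, DI21 at 0.87, BHLH101 at 0.34, OASA2 at 0.31, ATG8B at 0.30, AMY1 at 0.21, HTB4 at 0.20, ACLA-3 at 0.15 and APS4 at 0.10. ETP2 was called at -0.50 with this covariate. Leaving out single arrays ended the call of 12 genes, and another prior, normalisation, weighting or array subset that of 10 genes. In the gene lists the 25S covariate moved immune falls from 2 to 0, gibberellin and brassinosteroid falls from 2 to 0, bZIP falls from 5 to 2, subtilase falls from 4 to 2, sucrose falls from 5 to 3, rises in phenylpropanoids and chromatin from 4 to 2 each, and rises in expansins from 0 to 3. Leaving out 1 array moved a count over 1.5 times in 32 of 69 lists, in 8 of them a count of 3 or more genes. The causes were not tested. Whether the states share plants is not given, and p-values cover array-to-array spread only, which may be partly technical. Signals near 4 lie near the array's lower end, where fold changes are compressed.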

Other observations

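Small defence proteins and beta-glucosidases, not described above, changed in both directions. Of 15 defensins, thionins and related proteins 4 rose and 2 fell (1 without baseline replicate 1 or 2 or 20% replicate 4), with a median of 0.08. LCR69, a defensin-like peptide gene, read 8.80, 8.79, 9.82 and 8.84 at baseline and 10.71, 11.13, 11.27 and 11.57 at 20% inhibition and rose by 2.11 ± 0.25 (limma adjusted p 2.1e-06). PDF1.4, a plant defensin, rose by 0.54 ± 0.12. THI2.2, a thionin, fell by 0.67 ± 0.11, from 8.99 to 9.11 at baseline to 8.18 to 8.74.

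Of 21 beta-glucosidases 4 rose and 3 fell, with a median of 0.04, and 2 rose without baseline replicate 1, 2 or 4 or 20% replicate 4 or with the 25S covariate. BGLU16 read 7.78, 7.93, 7.87 and 8.25 at baseline and 9.38, 9.46, 9.45 and 9.44 at 20% inhibition, a rise of 1.48 ± 0.10 (limma adjusted p 1.8e-09). BGLU40 read 9.96, 10.08, 9.91 and 10.04 and then 8.54, 8.56, 8.73 and 8.52, a fall of 1.41 ± 0.10 (limma adjusted p 2.7e-09). BGLU25 rose by 0.77 ± 0.09 and BGLU33 fell by 0.59 ± 0.11. In each of these 4 genes the groups did not overlap.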
